A study of Rattus norvegicus with 20 samples.

Results

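RNA-seq of cultured rat epithelial cells held 123 genes that were high in whisker follicle cells before transplantation and lower in every bladder, tracheal, vaginal and thymic group, both before transplantation and after the cells had been recovered from skin transplants. They are called whisker genes here. The level of a gene in a group was the mean over its 2 samples of log2(CPM + 1), where CPM is the count of a gene scaled to the same total of reads on genes in every sample. A gene was taken when this level in whisker cells before transplantation was at least 1 above that in each of the other 8 groups, which 132 genes met. Of these, 9 were left out by symbol because they belong to transporter, keratin, integrin or cadherin families. The 123 whisker genes are a small share of the 32494 genes listed and of the 13302 genes tested, that is, genes that reached 1 CPM in some sample. All 123 passed this filter, 121 of them also through a sample other than whisker before transplantation and 108 through a sample of the 8 tissue groups. These genes were chosen by the measured levels of 18 of the 20 samples, so the difference between whisker cells before transplantation and the 8 groups is a description and was not tested. The recovered whisker samples had no part in the choice.

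The cells came from Sprague-Dawley rats that carry EGFP in all cells under the CAG (actin) promoter, and all groups share this transgene. Cells were grown on irradiated mouse 3T3-J2 feeder cells, combined with newborn mouse skin, grafted onto nude mice, and later cultured again from the grafts. The cultured cells of both rounds, before transplantation and recovered, were sorted on EGFP before RNA was extracted. Donor ages were PN57 for whisker, PN137 for thymus, PN200 for vagina and trachea, and PN201 for bladder (dome), in postnatal days, so tissue and donor age cannot be told apart. Bladder, tracheal and vaginal cells were bulk cultures in both rounds. The whisker cells were clone 7 before transplantation and its recovered counterpart was subclone 14, so each whisker group is a single clone. For every fall in whisker given below, transplantation and subclone cannot be told apart. The choice of genes high in first-round whisker also favours such falls and their p-values. The first-round thymic cells are given as bulk in the sample title and as clone 9 in the source name. The paper states that the thymic cells of both rounds came from a frozen stock of earlier work, so tissue and stock cannot be told apart there. Each of the 10 groups had 2 samples, which are not stated to come from separate animals or grafts, and the p-values then measure only the spread between these samples. This spread was unequal. The mean chi-square per gene between the 2 samples was 34.1 in first-round bladder and 43.2 in first-round thymus, and 2.49 to 9.96 in the other groups. The fit shares the spread of a gene over all groups, so standard errors and p-values of changes in bladder and thymus may be too small.

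Between 20723083 and 29824855 reads per sample fell on genes, and 3 reads correspond to 0.101 to 0.145 CPM. This level is called the floor here, and no fold change is given against a group whose samples averaged 3 reads or fewer. Counting error was small for most whisker genes in whisker cells and large for many in the other groups, where 3 or fewer reads in both samples were found for between 6 (recovered vagina) and 33 (recovered trachea) of the 123. Of the epithelial markers considered, only Epcam could be paired with an identifier, so basal cells could not be assessed by this list. Epcam lay between 134 and 518 CPM in every sample. In bulk RNA, fewer cells of a type and less RNA per cell cannot be told apart.

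A whisker, or vibrissa, is a large sensory hair follicle. Its stem cells lie in the bulge of the outer root sheath and give rise to the hair, the sebaceous gland and, after wounding, the epidermis. Epidermal cells that leave the basal layer switch on a late programme of secreted proteins, proteases and lipid enzymes that builds the cornified layer. Hedgehog, Wnt and BMP signals between the follicle and the surrounding dermis set the hair cycle, and the follicle is densely innervated and makes neurotrophin receptors itself. Bladder urothelium and tracheal epithelium form no cornified layer, and the vaginal epithelium cornifies with the oestrous cycle.

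Whisker genes covered a wide range of levels. In whisker cells before transplantation their level ran from 1.54 to 10.14 on the log2(CPM + 1) scale, with a median of 4.95. The median level went from 1.01 before transplantation to 2.00 after recovery in bladder, from 0.85 to 1.04 in trachea, from 1.65 to 2.16 in vagina and from 1.44 to 1.97 in thymus. Recovered whisker cells had a median of 3.91. The highest of the 8 groups was a recovered one for 87 genes, most often vagina (43 genes), thymus (24) or bladder (18) and rarely trachea (2). For the other 36 it was a first-round group. The difference between whisker before transplantation and the highest of the 8 groups had a median of 1.54 and was at least 3 for 10 genes. Chdh (1.01), Cbs (1.02) and Rtn4rl1 (1.02) were just inside the limit of 1, and Dnmt3a (0.99), Cyp4v3 (0.96) and Smim5 (0.95) were just outside it.

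**Figure D1:**
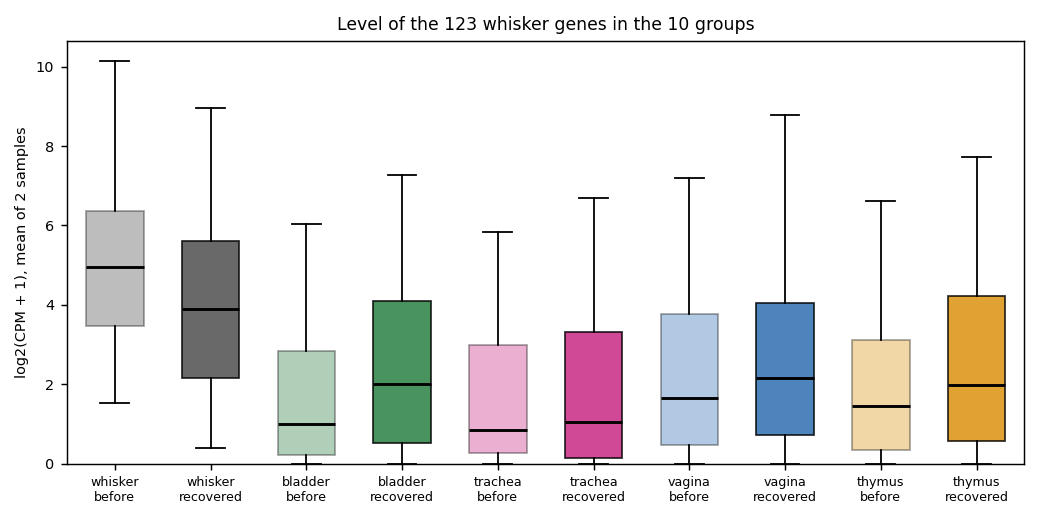
Levels of the 123 whisker genes in the 10 groups. The y axis is log2(CPM + 1), the mean of 2 samples; boxes span the middle quartiles, black lines are medians and whiskers reach the lowest and highest gene. The median of each recovered tissue lies above that of the same tissue before transplantation, by the most in bladder (1.01 and 2.00) and the least in trachea (0.85 and 1.04).

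The first question was whether the whisker genes moved in the non-hair epithelia once the cells had been through a skin transplant. Many moved up. That none reached the level of first-round whisker was fixed by the selection and is no result. In bladder 62 of the 123 rose and 12 fell, against 10.1% of all genes tested that rose and 11.0% that fell. In thymus 46 rose and 13 fell, where the shares over all genes were 8.49% and 6.89%. In vagina 37 rose and 7 fell, with 4.25% and 7.53% over all genes. In trachea 31 rose and 17 fell, with 4.39% and 8.04% over all genes. A gene was called when limma voom gave an adjusted p under 0.05 and a change of at least 2-fold, and the median log2 fold change over the 123 was 1.05 in bladder, 0.70 in thymus, 0.53 in vagina and 0.07 in trachea. With genes at 0 reads in both samples of a group set to the change from 3 reads per library, a lower bound, the medians were 1.00, 0.64, 0.51 and 0.04. The selection held both rounds of each tissue under the same limit, and it did not use the difference between them.

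In total 88 whisker genes rose in at least 1 tissue, compared with 19.7% of all genes tested, and 25 rose in at least 3, compared with 1.53%. The 8 that rose in all 4 tissues (0.278% of all genes tested) were Sbsn, Moxd1, Calml5, Chdh, Adgrf2, Sdr9c7, Gli1 and Dsc1, where Adgrf2 lies outside the naming rule. Leaving out 1 sample at a time gave 4 to 9 such genes. The count of 4 came without the first vaginal sample before transplantation, when Calml5 (log2 fold change 0.87), Chdh (0.97), Sdr9c7 (0.59) and Dsc1 (0.94) were no longer called in vagina. The call of Gli1 in thymus was lost without the first sample of either round (1.41 and 1.46), that of Adgrf2 in thymus likewise (0.996 and 0.88), that of Sbsn in trachea without either first-round sample (1.82 and 1.68) and in thymus without the second first-round sample (0.80). Chdh was also lost in vagina without the second recovered sample (0.98). Dsc1 was lost in trachea without either first-round sample or the second recovered one, and in vagina also without the first recovered one (1.29). Of the 88, 21 also fell in another tissue (6.73% of all genes tested did both). Of the remaining genes, 12 only fell (14.8%) and 23 neither rose nor fell in any tissue (65.5%). Part of these calls concern low levels. At least 1 CPM in both recovered samples was reached by 48 of the 62 that rose in bladder, 34 of the 46 in thymus, 26 of the 37 in vagina and 25 of the 31 in trachea. Rises of this kind were 8.95%, 6.99%, 3.49% and 3.67% of all genes tested.

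**Figure D2:**
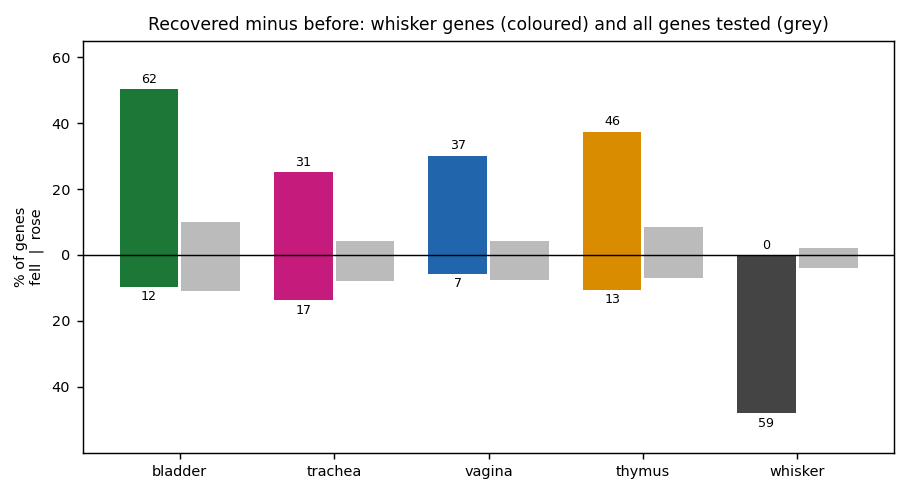
Share of genes that rose (above 0) or fell (below 0) after transplantation, in percent, by tissue. Coloured bars are the 123 whisker genes, with the number of genes at the end of the bar, and grey bars are all 13302 genes tested. The rises exceed the grey bars in bladder, trachea, vagina and thymus, and in whisker 59 genes fell and 0 rose.

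Genes of late epidermal differentiation rose more often than they fell in each tissue. All 10 whisker genes on this list rose in bladder, as did 6 in vagina, 6 in thymus and 7 in trachea, and none fell in any of the 4 tissues. Endou, an endoribonuclease, was lost from the bladder count in each fit without a bladder sample (log2 fold changes of 1.20 to 1.54), which left 9, and also with DESeq2 size factors (1.35) and without the low-count filter (1.38). Without the first vaginal sample before transplantation 2 were called in vagina, and without the second thymic one 3 in thymus. The list and its members were chosen with earlier results of these data known. Sbsn encodes suprabasin, a protein that suprabasal keratinocytes secrete. It read 0.856 and 1.67 CPM in bladder before transplantation and 96.6 and 81.1 CPM after recovery, a log2 fold change of 6.33 ± 0.41 (SE; adjusted p = 1.9e-09). In vagina it went from 11.1 and 14.8 CPM to 67.8 and 66.1 CPM, in thymus from 9.21 and 4.57 to 17.2 and 15.3 CPM, and in trachea from 1.19 and 1.07 to 3.52 and 3.87 CPM. Both recovered samples were above both first-round samples in each tissue. The whisker cells themselves fell from 551 and 507 CPM to 161 and 165 CPM (log2 fold change -1.67 ± 0.13, adjusted p = 2.1e-07), and recovered bladder was below recovered whisker by less than 2-fold.

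Dmkn encodes dermokine, another secreted product of suprabasal keratinocytes, and lies next to Sbsn on the chromosome with 1 coding gene between them. Its bladder samples were 0.298 and 0.176 CPM before and 85.0 and 77.4 CPM after transplantation, while recovered whisker read 87.2 and 86.2 CPM. Recovered bladder and recovered whisker differed by a log2 fold change of 0.05 ± 0.11 (adjusted p = 0.72), the highest recovered trachea sample was 3.20 CPM, and thymus reached 14.1 and 14.3 CPM. Calml5, a calmodulin-like protein of differentiating epidermis, rose in all 4 tissues and kept its level in whisker. It read 52.7 and 46.2 CPM in whisker before transplantation and 49.1 and 51.8 CPM after it. Recovered bladder had 10.7 and 9.61 CPM, trachea 5.84 and 5.98 CPM, vagina 13.5 and 13.9 CPM, and thymus 3.06 and 3.37 CPM. All of these were above their own first-round samples, the highest of which were 0.264, 1.07, 7.67 and 0.283 CPM.

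Casp14, the caspase of cornification, rose in bladder and trachea. It went from 2.64 and 1.72 to 7.89 and 7.81 CPM in bladder and from 6.11 and 6.06 to 24.9 and 18.1 CPM in trachea (log2 fold change 1.83 ± 0.20, adjusted p = 2.1e-06). In thymus it stayed between 7.70 and 8.92 CPM, and there the change was -0.12 ± 0.20 (adjusted p = 0.66). Klk7, a protease that sheds cornified cells, went from 0.344 and 0.133 CPM to 2.97 and 2.88 CPM in vagina and from 0.186 and 0.0441 to 3.02 and 3.00 CPM in bladder, and was not called in trachea or thymus. Sdr9c7, an enzyme of the lipid layer around cornified cells, reached 3.68 and 3.68 CPM in bladder and 2.45 and 2.62 CPM in vagina. Of the other 9 genes of this list that had an identifier and are no whisker genes, 7 rose in bladder, 5 each in thymus and vagina and 2 in trachea, and none fell. Among these 9 is Krt10, which met the limit of the selection and was left out by symbol alone.

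Transcription factors mostly rose in vagina and mostly fell in trachea among those called. Of 11 whisker genes on this list, 6 rose in vagina and none fell, 5 rose and 1 fell in thymus, 2 rose and 1 fell in bladder, and in trachea 1 rose and 5 fell. Of the 5 falls in trachea, only that of Tbx1 started above 1 CPM. Wt1 went from 10 and 7 reads to 1 and 3, Bcl11a from 8 and 8 to 2 and 0, and Pknox2 from 5 and 3 to 0 and 0. Bhlhe41 went from 18 and 13 reads to 0 and 0. In vagina, Irx4 rose from 1 and 2 reads to 4 and 8, and Wt1 from 1 and 1 to 14 and 19. Leaving out 1 sample gave 5 to 7 rises in vagina and 4 to 6 falls in trachea. In thymus the rises were 3 without the first sample before transplantation and 2 without the first recovered one, and the single fall was lost without the second sample before transplantation or either recovered one. In bladder 1 rose and 2 fell without the first sample before transplantation. Tbx1 is a T-box factor of the hair follicle bulge and of pharyngeal epithelium. Tracheal cells read 7.50 and 6.91 CPM before transplantation and 1.40 and 0.903 CPM after it (log2 fold change -2.64 ± 0.44, adjusted p = 0.00017). It rose in vagina from 2.18 and 1.91 to 10.1 and 13.3 CPM (2.56 ± 0.34, adjusted p = 2.1e-05), in thymus from 3.15 and 2.59 to 8.05 and 5.69 CPM (1.22 ± 0.33, adjusted p = 0.0057), and in bladder from 3.39 and 6.21 to 8.47 and 8.81 CPM (1.05 ± 0.27, adjusted p = 0.0036). The signed change in trachea was lower than in each of the other 3 tissues, with differences of log2 fold change of -3.70 ± 0.52 against bladder, -5.20 ± 0.56 against vagina and -3.86 ± 0.55 against thymus, each called. The rise in bladder was not called without the first bladder sample before transplantation (0.61), and stayed under 2-fold with DESeq2 (0.95) and edgeR (0.99), and the rise in thymus was lost without the first recovered sample (0.97). Recovered whisker cells held 79.6 and 104 CPM, above every tissue sample.

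Tfap2b encodes AP-2 beta, a factor of ectoderm and neural crest. Before transplantation it was under the floor in 7 of the 8 tissue samples, with 0.164 CPM in the remaining tracheal sample. After recovery it read 8.08 and 7.85 CPM in vagina and at most 0.0438 CPM in bladder, trachea and thymus. In whisker it was 34.3 and 32.4 CPM before and 43.2 and 50.1 CPM after transplantation, a change of 0.51 ± 0.10 (adjusted p = 0.0014) that stayed under 2-fold. Bcl11a, a zinc finger repressor, also went up in vagina, from 0.191 and 0.0443 CPM to 6.07 and 7.85 CPM, and in thymus from 0.444 and 0.615 to 3.85 and 3.58 CPM, whereas trachea held 0.328 and 0.341 CPM before and at most 0.0965 CPM after transplantation (a fall that was not called without the second recovered sample). Wt1, the zinc finger factor of the developing kidney and mesothelium, went up in thymus from 0.121 and 0.220 to 5.78 and 6.44 CPM. There it lay above recovered whisker, which had fallen from 27.9 and 32.2 CPM to 2.99 and 2.85 CPM (-3.33 ± 0.15, adjusted p = 4.1e-10), though by less than 2-fold. Without the first recovered thymic sample that difference passed 2-fold (-1.03).

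Gli1, a transcriptional effector and target of Hedgehog signalling, rose in all 4 tissues. It reached 3.30 and 3.66 CPM in vagina, 1.26 and 1.84 CPM in trachea, 0.788 and 0.682 CPM in thymus, and 0.665 and 0.561 CPM in bladder, and recovered whisker had 12.4 and 13.7 CPM. Its relative Gli2 was not called in any tissue, with log2 fold changes between 0.05 in trachea and 0.96 in thymus. Bhlhe41, a repressor of the circadian clock, fell in trachea from 0.738 and 0.555 CPM to 0 reads in both samples. Kctd15, known as an inhibitor of AP-2 factors, was called in no tissue. Of the 8 other genes of the list with an identifier, 4 rose and 1 fell in trachea, 3 rose and 2 fell in bladder, 4 rose in thymus and 1 rose in vagina.

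Since AP-2 and Hedgehog factors were among the whisker genes, the promoters of the 84 whisker genes with an entry in the RefSeq (GRCr8) promoters were read from 250 bases before to 50 bases after the start site. The AP-2 letters GCCNNNGGC, a palindrome, stood in 14 of the 84 (16.7%) and in 15.7% of 27457 promoters of the same length, searched on both strands. The GLI letters GACCACCCA stood in 1 (1.19%, against 0.379% of all), and the TCF/LEF letters CTTTGAT in 2 (2.38%, against 3.62%). The shares with the AP-2 letters were thus nearly the same, and members' promoters held a median of 59.3% G and C against 52.3% over all promoters. Shown are some of the matches in genes whose values are given here, with the match in capitals, 5′ to 3′ along the gene. They are those of Bcl11a (chr14:102231430-102231463, plus strand), Sh3gl2 (chr5:104699135-104699179, plus), Lgr4 (chr3:116901918-116901962, plus) and the GLI match of Sdr16c6 (chr5:21916335-21916379, minus strand). The capitals of Sdr16c6 are the GLI letters read on the opposite strand. Chrd and Crispld2, among others, also had AP-2 matches before the start site, which are not shown. A match is not a binding site, and no binding was measured.
Bcl11a: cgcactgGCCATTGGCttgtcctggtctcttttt
Sh3gl2: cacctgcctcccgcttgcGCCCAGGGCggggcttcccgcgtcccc
Lgr4: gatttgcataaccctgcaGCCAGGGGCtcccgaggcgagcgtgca
Sdr16c6: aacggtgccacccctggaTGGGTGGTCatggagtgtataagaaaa

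**Figure D3:**
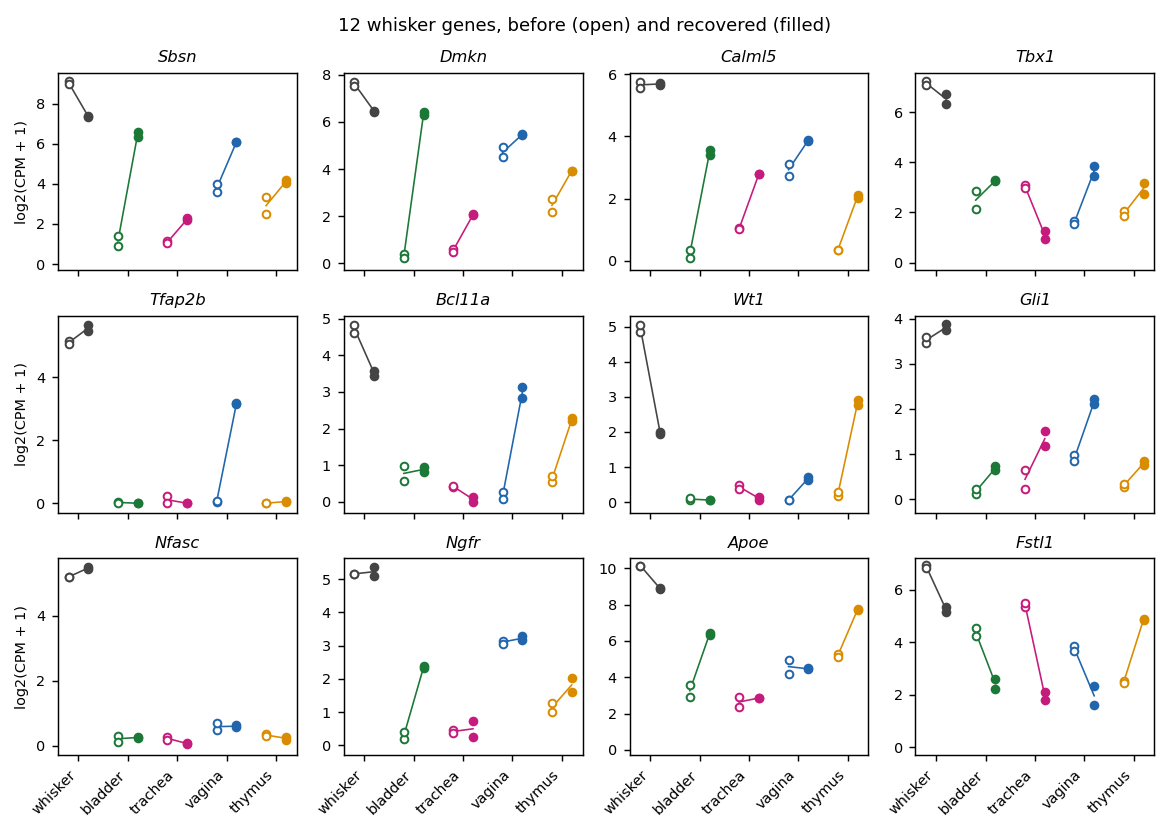
12 whisker genes in every sample. The y axis of each panel is log2(CPM + 1), open circles are samples before transplantation, filled circles recovered samples, and lines join the group means. Among the 4 tissues Tbx1 goes down in trachea alone and Tfap2b goes up in vagina alone, and Nfasc stays below 1 in all tissue samples.

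Signalling genes numbered 16. In bladder 9 rose and 3 fell, in vagina 5 rose and 1 fell, in thymus 5 rose, and in trachea 2 rose and 4 fell. The 4 falls in trachea became 2 without the first sample of either round and 1 without the second recovered sample, and the 5 rises in thymus became 3 without either first-round sample or the first recovered one. Of the 10 other genes of the list with an identifier, 4 rose and 3 fell in bladder, 1 rose and 2 fell in vagina, 3 rose and 2 fell in thymus, and 5 fell in trachea, so falls in trachea were no more frequent among the whisker genes. The receptors differed. Ngfr, the low-affinity neurotrophin receptor, rose in bladder from 0.149 and 0.308 to 4.26 and 3.96 CPM (4.27 ± 0.53, adjusted p = 4e-06) and stayed at 7.88 and 7.32 CPM before and 7.92 and 8.75 CPM after transplantation in vagina. In whisker it was 34.9 and 34.5 CPM before and 40.1 and 32.8 CPM after. Ntrk3, the receptor of neurotrophin-3, had 0 reads in all 4 bladder samples and reached 1.37 and 0.805 CPM in recovered vagina, against 4.89 and 8.11 CPM in recovered whisker. Lgr4, a receptor for R-spondins that strengthens Wnt signals, was flat in the tissues and fell in whisker. Across the 16 tissue samples it lay between 18.6 and 34.9 CPM, and whisker went from 148 and 176 to 45.2 and 51.6 CPM (-1.72 ± 0.12, adjusted p = 6.2e-08). A fall of this kind in whisker is favoured by the selection.

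Secreted antagonists and ligands of the interleukin-1 family were also among them. Il36rn, the IL-36 receptor antagonist, had at most 0.112 CPM in bladder and 0.0427 CPM in trachea before transplantation, and read 15.3 and 14.8 CPM in bladder and 1.98 and 2.03 CPM in trachea after it. In vagina it rose from 4.21 and 5.50 to 28.2 and 27.6 CPM (2.60 ± 0.15, adjusted p = 1.7e-09), and thymus stayed between 1.40 and 1.62 CPM. Its chromosomal neighbour Il1f10 (IL-38) reached 1.05 and 0.838 CPM in vagina and had 0 reads in recovered trachea. Il1r2, the decoy receptor for IL-1, followed another pattern. It rose in thymus from 0.404 and 0.352 to 5.995 and 6.44 CPM (3.98 ± 0.33, adjusted p = 7.4e-08), in vagina to 3.66 and 2.85 CPM and in bladder to 6.12 and 6.05 CPM, and fell in trachea from 0.451 and 0.469 to 0.0965 and 0.150 CPM (adjusted p = 0.016, with 2 and 4 reads after recovery). This fall was not called without the second first-round sample or either recovered one. Il1rap, the shared co-receptor, was called in no tissue and lay between 18.2 and 35.4 CPM in the 16 tissue samples, against 62.4 and 66.8 CPM in recovered whisker.

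Tnfsf9, a ligand of the TNF family, rose in bladder and trachea, to 17.9 and 17.7 and to 12.3 and 13.2 CPM, and stayed at 46.0 and 41.6 CPM in recovered whisker. Ephb6, an Eph receptor without kinase activity, rose in bladder with a log2 fold change of 1.79 ± 0.12 (adjusted p = 1.9e-09). Chrd encodes chordin, a BMP antagonist, and rose in bladder alone among the tissues, from 0.521 and 0.352 to 1.37 and 1.56 CPM. Sema3e, a guidance ligand, was called in none of the 4 tissues and fell in whisker from 67.9 and 81.4 to 18.3 and 21.5 CPM, inside the range of the recovered tissues (13.0 to 19.4 CPM) or just above it.

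Neuronal and synaptic genes made up 11 of the whisker genes and moved in both directions. In bladder 1 rose and 3 fell, in trachea 2 rose and 2 fell, in vagina 3 rose and 1 fell, and in thymus 5 rose and 2 fell. With 1 sample left out, 1 or 2 rose and 1 or 2 fell in trachea (fewer rises without the first sample of either round, fewer falls without the first first-round or the second recovered sample). In thymus 2 rose without the first first-round sample, and 1 fell without the second recovered one. Nfasc encodes neurofascin, a cell adhesion protein of axons. It was 35.3 and 35.7 CPM in whisker before transplantation and 43.8 and 42.5 CPM after recovery, and lay between 0.0376 and 0.621 CPM in the 16 tissue samples. It was called in none of the 4 tissues, and its level in recovered whisker exceeded that of recovered vagina, the closest tissue, by 6.35 ± 0.26 on the log2 scale. The selection held recovered vagina low, so the size of this difference is favoured by the choice. Rtn4rl1, a Nogo receptor relative, rose in bladder (2.58 ± 0.20, adjusted p = 1.8e-08) and thymus (3.86 ± 0.26, adjusted p = 6.3e-09), where it reached 46.3 and 41.9 CPM. Sh3gl2, an endophilin of synaptic vesicles, rose in vagina from 0.0765 and 0 CPM to 2.65 and 2.35 CPM, fell in bladder from 5.54 and 6.87 to 1.77 and 1.76 CPM (-1.67 ± 0.23, adjusted p = 1.2e-05) and went from 0.942 and 1.15 CPM to 0 reads in trachea. Kif26b, a kinesin, rose in trachea, vagina and thymus, and in thymus it went from 0.202 and 0.308 to 7.40 and 8.35 CPM. Of the other 9 genes of this list, 2 rose and 3 fell in bladder, 2 rose and 2 fell in trachea, 2 rose in vagina and 1 rose in thymus.

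Of 8 matrix genes, 4 rose and 2 fell in bladder, 1 rose and 3 fell in trachea, 1 rose and 2 fell in vagina, and 4 rose and 2 fell in thymus. Of the 4 other genes of the list with an identifier, 2 fell in bladder, 2 fell in trachea, 1 rose and 1 fell in vagina, and 1 rose in thymus. Without the second thymic sample of either round 1 fell in thymus. Timp3, a tissue inhibitor of metalloproteinases, fell in all 4 tissues and in whisker, though its fall in thymus was lost in the same fits (-1.39 and -1.37). In vagina it fell from 3.21 and 2.79 to 0.522 and 0.302 CPM (-2.83 ± 0.38, adjusted p = 2e-05), and in whisker from 11.0 and 14.9 to 0.352 and 0.277 CPM (-5.24 ± 0.39, adjusted p = 9.5e-08). All 10 recovered samples were therefore at or below 0.522 CPM. Loxl2, a collagen cross-linking enzyme, fell in bladder from 12.5 and 18.6 to 3.15 and 2.44 CPM and in trachea from 28.7 and 31.9 to 4.68 and 4.48 CPM, and rose in thymus from 3.88 and 6.37 to 14.9 and 14.7 CPM (1.58 ± 0.22, adjusted p = 2.4e-05). In whisker it fell from 65.4 and 63.2 to 21.3 and 19.2 CPM, and in vagina it was not called. Fstl1, a secreted glycoprotein counted under signalling, fell in trachea from 40.0 and 44.5 to 3.33 and 2.52 CPM (-3.83 ± 0.25, adjusted p = 7.9e-09) and in bladder from 22.1 and 17.9 to 5.14 and 3.68 CPM, and rose in thymus from 4.77 and 4.53 to 27.7 and 28.8 CPM (2.61 ± 0.21, adjusted p = 5.9e-08). It also fell in vagina from 13.5 and 11.6 to 2.05 and 3.99 CPM (-2.03 ± 0.25, adjusted p = 9.9e-06) and in whisker from 121 and 113 to 39.3 and 34.8 CPM (-1.63 ± 0.12, adjusted p = 1.1e-07).

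Fibroblast markers were lower after recovery in bladder and trachea and higher in thymus. The summed level of Col1a1, Col3a1 and Dcn, the 3 of 8 fibroblast markers that had an identifier, went from 245 and 193 to 25.6 and 23.3 CPM in bladder and from 275 and 280 to 42.3 and 36.6 CPM in trachea. It went from 19.99 and 20.6 to 35.5 and 39.2 CPM in thymus, lay between 20.6 and 28.6 CPM in vagina and between 22.6 and 44.2 CPM in whisker, and none of the 3 markers was at 0 reads in any group. The directions of Fstl1 and Loxl2 were those of this sum in bladder, trachea and thymus, and the part of fibroblast-like RNA in these changes was not tested. In vagina and whisker the sum stayed in the ranges given while Fstl1 and Timp3 fell, and in thymus Timp3 fell while the sum was higher. Tgfbi, a matrix protein induced by TGF-beta, went the other way in bladder, rising from 8.48 and 16.2 to 62.0 and 67.2 CPM, and stayed between 369 and 396 CPM in all 4 whisker samples. Crispld2, a secreted protein, rose in thymus from 7.55 and 6.81 to 84.6 and 85.7 CPM (3.57 ± 0.10, adjusted p = 3.8e-13) and in vagina (2.16 ± 0.11, adjusted p = 4.5e-10), and was not called in trachea or bladder. Anpep, a membrane aminopeptidase, fell in trachea from 1.39 and 1.88 to 0.0965 and 0.226 CPM and in thymus from 3.15 and 3.38 to 1.44 and 1.36 CPM. Adhesion genes were 6, and 2 rose and none fell in bladder and in vagina, 2 rose and 1 fell in trachea, and 1 rose and 2 fell in thymus. The 7 other genes of the list had 3 rises and 1 fall in bladder, 2 rises and 1 fall in trachea, 2 rises in vagina and 2 in thymus. These small counts moved with single samples: none rose in vagina without the first first-round sample and 1 without the first recovered one, 1 rose in trachea without either first-round or the second recovered sample, and 1 fell in thymus without the second sample of either round. Heg1, a receptor for a cadherin-linked complex, was called in no tissue.

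Apoe, the apolipoprotein of lipid transport, had the highest level of all whisker genes in whisker cells before transplantation. It was 1139 and 1122 CPM there before transplantation and 485 and 456 CPM after (-1.24 ± 0.16, adjusted p = 3.1e-05). In thymus it rose from 38.5 and 33.4 to 207 and 216 CPM (2.57 ± 0.18, adjusted p = 7.3e-09) and in bladder from 11.0 and 6.61 to 78.0 and 86.1 CPM (3.36 ± 0.24, adjusted p = 5.3e-09), and it stayed between 4.14 and 6.52 CPM in trachea. The other whisker genes of the sebaceous and lipid list, Sdr16c6 and Pla2g2f, were at 0 reads in most tissue samples before transplantation and reached 0.700 CPM at most after it. All 3 fell in whisker. Of the 4 other genes of the list, 1 rose and 1 fell in bladder, 1 rose in trachea, 2 fell in vagina, and 2 rose and 2 fell in thymus. Moxd1, a monooxygenase of the dopamine beta-hydroxylase family, kept 336 and 340 CPM in recovered whisker and rose in all 4 tissues, most in bladder, from 1.64 and 2.16 to 85.2 and 94.8 CPM (5.69 ± 0.18, adjusted p = 5.4e-13). Gpnmb, a membrane glycoprotein of pigment and other cells, rose in trachea alone, from 17.5 and 19.5 to 88.5 and 85.0 CPM (2.28 ± 0.10, adjusted p = 1.3e-10). Fxyd4, a regulator of the sodium pump, rose in trachea from 0.942 and 1.41 to 34.2 and 37.5 CPM (4.99 ± 0.31, adjusted p = 4.8e-09) and in bladder to 32.9 and 34.6 CPM, and fell in vagina from 30.6 and 33.7 to 15.9 and 14.8 CPM, a fall that was under 2-fold without the second sample of either round (-0.94 in both fits).

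Other genes of the highest level or the largest difference varied in the tissues in which they moved, and some were called in no tissue. Trim63, a ubiquitin ligase known from muscle, rose in bladder and thymus, where it reached 103 and 107 CPM against 156 and 198 CPM in recovered whisker. In thymus DESeq2 did not call it (1.36, adjusted p = 0.0633). Hip1, an endocytic adaptor, rose in bladder (1.57 ± 0.10, adjusted p = 1.9e-09) and thymus (1.20 ± 0.10, adjusted p = 4.9e-08). Sun2, a nuclear envelope protein, rose in bladder (1.12 ± 0.08, adjusted p = 7.6e-09, and 0.99 without the first bladder sample before transplantation), and Cit, a kinase of cytokinesis, was called in no tissue and not in whisker. Palmd, an actin-associated protein, fell in thymus from 8.64 and 7.51 to 1.09 and 1.13 CPM while it rose in bladder and vagina. Cbs, the first enzyme of transsulfuration, reached 5.99 and 4.73 CPM in bladder and 16.6 and 16.0 CPM in vagina, above the 14.0 and 12.3 CPM of recovered whisker, from which vagina differed by less than 2-fold. Cbs was also called as risen in thymus. Nuak1, a kinase, fell in trachea and vagina. Asb15 and March11, which belong to families of ubiquitin ligase components, were low in all tissue samples, with 0.360 CPM at most.

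The next question was whether the difference from whisker holds when the whisker cells too have been through a transplant. The recovered whisker samples were not used by the selection, while the recovered tissue samples were chosen to be low. Recovered whisker was higher than recovered trachea for 112 of the 123 genes (9.22% of all genes tested), higher than recovered bladder for 90 (6.59%), than recovered vagina for 90 (6.2%) and than recovered thymus for 90 (6.21%). These 4 comparisons share the recovered whisker samples. The median log2 difference over the 123 was 3.15 against trachea, 1.94 against bladder, 1.72 against thymus and 1.67 against vagina. It was higher than all 4 recovered tissues for 63 genes (1.14% of all genes tested), and than exactly 3, 2, 1 and 0 of them for 30, 15, 10 and 5 (2.09%, 4.33%, 8.74% and 83.7%). The 63 became 58 to 63 with 1 sample left out. Both recovered whisker samples lay above all 8 recovered tissue samples for 105 whisker genes, as they did for 10.7% of all genes tested. On the scale of the selection, recovered whisker was at least 1 above all 4 recovered tissues for 48 genes, and 0.616% of all genes tested met this. The name of the set, still low in recovered cells, therefore holds against first-round whisker by construction and against recovered whisker for a smaller number.

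Among the 63 genes were Nfasc, Tbx1, Tfap2b, Ngfr, Ntrk3, Gli1, Calml5, Il36rn, Moxd1, Tgfbi and Apoe. The 5 that were higher than none of the recovered tissues were Sema3e, Timp3, Atp2b4, Mr1 and the locus LOC497940, of which the last 3 lie outside the naming rule. Atp2b4, a calcium pump, fell in whisker from 48.9 and 54.1 to 8.59 and 11.9 CPM and read 7.32 and 6.97 CPM in recovered bladder. Mr1, a molecule that presents metabolites to T cells, had 15.3 and 17.3 CPM in recovered whisker and 15.3 and 13.1 CPM in recovered bladder. Fetub, a fetuin family protein, was the single whisker gene called lower in recovered whisker than in a recovered tissue (5.68% of all genes tested were lower than in vagina), with 0.660 and 0.751 CPM against 1.93 and 2.41 CPM in vagina (-1.59 ± 0.42, adjusted p = 0.0056).

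**Figure D4:**
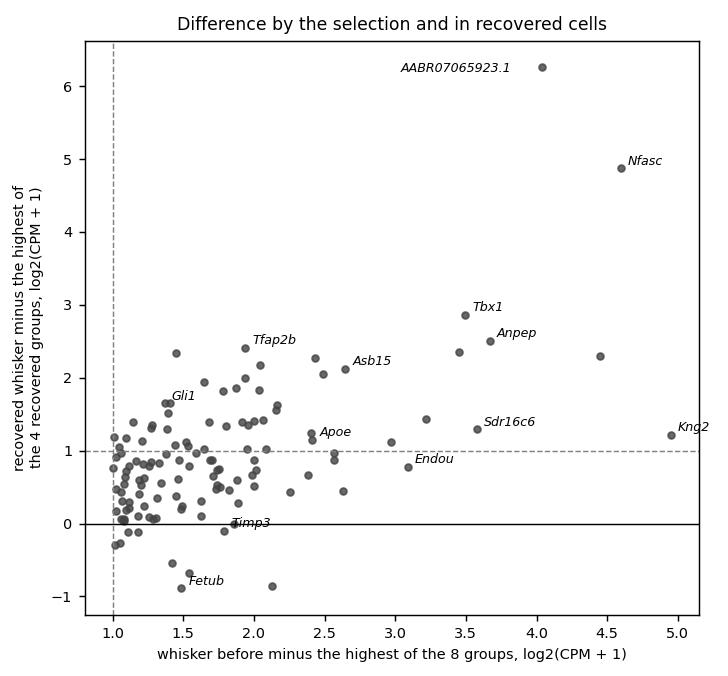
Each point is a whisker gene. The x axis is the log2(CPM + 1) level of whisker before transplantation minus that of the highest of the 8 groups, which had to be at least 1, and the y axis is the level of recovered whisker minus that of the highest of the 4 recovered groups. On the y axis 48 genes lie at or above 1 and 10 do not lie above 0.

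Whisker cells changed as well between the clone before transplantation and the recovered subclone. Of the 123 genes, 59 fell (3.83% of all genes tested) and 0 rose (2.15%), and the median log2 fold change was -0.96. Because the genes were chosen for a high level before transplantation, a lower second value is favoured by the choice, and transplantation and subclone cannot be told apart. With limma voom, 4 genes lay above 0 at an unadjusted p under 0.05, with edgeR's quasi-likelihood test 3 and with DESeq2 2, and none of these passed 2-fold at an adjusted p under 0.05. Kng2, a kininogen, fell from 57.2 and 50.5 to 3.70 and 2.61 CPM (-4.09 ± 0.19, adjusted p = 4.1e-10), and with Timp3, Fetub, Wt1 and March11 it made up the 5 largest falls. All but Timp3 and Wt1 of these had under 2.42 CPM in every tissue sample. By role, 10 of 16 signalling genes, 5 of 11 neuronal genes, 5 of 8 matrix genes, 5 of 10 late epidermal genes, 3 of 11 transcription factors, 2 of 6 adhesion genes and all 3 lipid genes fell. The other genes of these lists did not meet the limit of the selection, apart from the late epidermal gene Krt10, which was left out by symbol alone. Of these other genes, 1 of 10, 1 of 9, 2 of 4, 0 of 9, 2 of 8, 1 of 7 and 1 of 4 fell in the same order.

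Of the 63 genes that were higher in recovered whisker than in all 4 recovered tissues, 22 had fallen in whisker (0.18% of all genes tested did both) and 41 were not called there (0.797%). Nfasc, Tfap2b and the clone-named gene AABR07065923.1 were those above 0 at an adjusted p under 0.05, each by less than 2-fold. The last, which was picked for its values, read 74.3 and 96.9 CPM in whisker before and 117 and 111 CPM after transplantation. In first-round thymus it had 4.73 and 3.78 CPM, and all other tissue samples were at or below 0.569 CPM.

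The last question was whether trachea differed from the other tissues in its change, tested by the interaction of tissue and transplantation. The 3 comparisons share the tracheal samples. In either direction 54 whisker genes differed from bladder (12.6% of all genes tested), 45 from vagina (17.2%) and 43 from thymus (17.5%). Changes were compared with their sign, so a lower change can be a smaller rise, a larger fall or a fall set against a rise. It does not mean a weaker response. Against bladder, the change in trachea was lower for 45 whisker genes and higher for 9 (7.67% and 4.91% of all genes tested), with a median difference of -1.20. Against thymus it was lower for 25 and higher for 18 (10.2% and 7.34%), with a median of -0.58. Against vagina it was lower for 25 and higher for 20 (8.15% and 9.09%), with a median of -0.29. The balance thus leaned to lower changes in trachea most clearly against bladder, and was close to even against vagina. The 7 genes whose change was lower in trachea in all 3 comparisons (1.27% of all genes tested) were Tbx1, Bcl11a, Il1r2, Fstl1, Sh3gl2, Anpep and Crispld2. Of these, Tbx1 and Il1r2 rose in the other 3 tissues. With 1 sample left out there were 6 to 8 such genes. Bcl11a was lost against bladder without the second sample of either tracheal round, Anpep against thymus without the first recovered tracheal sample (-1.50), and Crispld2 against bladder, at just under 2-fold, without the first bladder or tracheal sample before transplantation or the second recovered bladder sample (-0.99 to -0.98). By role, 8 of the 10 late epidermal genes had a lower change in trachea than in bladder and none a higher one. Against vagina, 4 of them had a higher change in trachea and 2 a lower one. Of the 9 other genes of that list, 5 had a lower change in trachea than in bladder. Against vagina, 3 of these others were lower and 1 higher. Among the 11 transcription factors, 7 had a lower change in trachea than in vagina and none a higher one. Of the 8 other genes of their list, 1 was lower and 2 higher.

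Some values are uncertain because reads that align to several places were not counted. Whisker genes with close copies are Skint1, Skint4 and Skint8, Pcdhga2, Hspa8 and the clone-named genes of the major histocompatibility region. Skint8, for instance, read 21.9 and 18.1 CPM in whisker before transplantation and at most 1.33 CPM in any tissue sample. In gene order along GRCr8, the 104 whisker genes that could be matched included the neighbours Il36rn and Il1f10, Skint8 and Skint1, with no coding gene between them, and Sbsn and Dmkn, with 1.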

How the data were processed

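RNA-seq counts of the 20 samples were used as deposited by the authors. The authors trimmed reads with cutadapt 1.8, aligned them with STAR 2.5.2b to Rnor_6.0 and counted reads per Ensembl 87 gene with HTSeq 0.6.1 from a stranded library, leaving out reads with several alignments, which lowers genes with close copies. Rows that name no gene held 41.6% to 46.4% of the reads listed and were left out. Their lists of fold changes and p-values were not used, except that these lists, held only in part here, pair 2311 identifiers with symbols. Of the 123 genes 119 had a symbol, 12 of them clone or locus names. The authors drew those lists from these samples, so which genes of a list have a name depends on them. Coordinates of Rnor_6.0 were not used here.

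Differences were fitted with limma 3.58.1 (voom) and TMM scaling in edgeR 4.0.16 under R 4.3.3, on the 13302 genes that reached 1 CPM in any sample, with 10 group means over all 20 samples, as the methods of the study name limma voom. P-values were adjusted by Benjamini-Hochberg over all genes of a comparison, two-sided, and genes called at adjusted p under 0.05 and at least 2-fold. Values after ± are standard errors of log2 fold changes. The members, role lists and markers were chosen with earlier results of these data known. Named genes were those of the role lists, the 10 highest in first-round whisker, the 10 with the largest difference from the other groups, the 5 largest falls in whisker, the 3 largest rises and falls per tissue with at least 1 CPM in the higher group, the 3 nearest the limit on either side and the 3 largest differences of change per comparison. Alternatives were edgeR's quasi-likelihood test, DESeq2 1.42.0, DESeq2 size factors, 2 other count filters, the replicate number as a block, a limit of 2 on the log2 fold change, fits to the compared groups alone and each replicate left out. The fit was tested on simulated counts. Of the marker lists, the Merkel list had 4 paired identifiers (Krt8 and Krt18, which simple epithelia also make, Isl1 and Piezo2) and summed to at most 2.35 CPM in whisker and to between 15.2 and 2152 CPM in the tissue samples; the immune list (Cd68, Cd74) lay between 11.6 and 70.3 CPM, the Schwann list had Ngfr alone, and melanocyte and endothelial lists had no paired identifier. Groups of 2 are too small for a test of single outlying samples, and intervals from counting error alone would be narrower than the spread between samples.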

Additional observations from a re-analysis of the deposited data

Results flagged for a closer look

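The change after transplantation differed between trachea and another tissue for many whisker genes by the interaction test of limma voom (called at adjusted p under 0.05 and at least 2-fold). These were 54 genes against bladder, 45 against vagina and 43 against thymus, of the 123, where 12.6%, 17.2% and 17.5% of all genes tested were called. Dmkn had the largest difference against bladder (-5.66 on the log2 scale), with a rise in bladder far above that in trachea. Fstl1, measured well above the floor in all 4 groups, fell in trachea and rose in thymus, a difference of -6.44.

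For the other genes with the largest fitted differences at least one of the 4 groups averaged 3 reads or fewer, so their sizes are not given. Against bladder these were Atp12a and Cbs. Atp12a, a proton pump subunit, read 5.63 and 4.93 CPM in recovered bladder and at most 0.145 CPM in any tracheal sample. Its call was lost with edgeR and without either bladder sample of either round or the second tracheal sample of either round. The call of Cbs was lost with edgeR, DESeq2 and without the second sample of first-round bladder, first-round trachea or recovered trachea. Against vagina they were Sh3gl2, Bcl11a and Tfap2b, and against thymus Sh3gl2 and Wt1.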

How the results depend on the processing

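In each comparison, the count over all 123 whisker genes stayed within 1.5 times the reported count under the other tests (edgeR's quasi-likelihood test, DESeq2), DESeq2 size factors, either other filter on low counts and every fit without a sample. Fitting only the groups compared left 8 falls in trachea, where 2 residual degrees of freedom remain. A log2 fold change of 2 left 6 falls in bladder, 15 rises and 10 falls in trachea, 22 rises and 4 falls in vagina, 26 rises and 4 falls in thymus, 49 genes above recovered vagina, 58 above recovered thymus, 20 falls in whisker and 28 differences between trachea and thymus. A limit of 1.5 in the selection would keep 64 genes. Replicate numbers did not pair the samples: deviations from group means correlated between -0.123 and 0.24 over 45 pairs of groups, above 0.1 in 10. With the replicate block 61 genes rose in bladder and 55 differed between trachea and bladder, and no count moved by more than 1.5 times. With 1 sample left out in turn, the rises ranged from 51 to 59 in bladder, 24 to 30 in trachea, 27 to 37 in vagina and 36 to 43 in thymus, the falls in whisker from 54 to 62, and the genes above recovered trachea from 110 to 113; the lone sample is then assumed to vary like the other groups. Without a sample the uncalled difference of Dmkn between recovered whisker and bladder ranged from -0.0148 to 0.121, and the uncalled change of Calml5 in whisker from -0.0497 to 0.1617, so neither has a sign. Leaving samples out of the counts by role and of the combined counts was added after the data were seen, and moved several by more than 1.5 times, as the 8 genes that rose in all 4 tissues (4 to 9); these are named beside the counts. Of the alternative values of single genes given here, 1654 kept their direction and side of the threshold, 54 lost their call and 1 gained it. With 2 samples per group, a change between levels near 3 reads rests on a handful of reads.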
